A study of Caenorhabditis elegans with 12 samples.

Results

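Heterotrimeric G protein signalling was examined in BAG neurons, the ciliated head neurons of *C. elegans* that sense CO2. Genes were chosen by name: every gene whose deposited symbol starts with *gpa-* or *rgs-* and a number, and 23 genes of the same pathway. The set held 51 genes of the 46766 annotated ones. They comprised 22 genes for Gα subunits, 4 for Gβ and Gγ subunits, 12 for regulators of G protein signalling (RGS proteins), 4 for receptor kinases, an arrestin and an exchange factor, 3 for enzymes of the Gq and diacylglycerol branch, and 6 for adenylyl cyclases and protein kinase A (PKA). RNA came from GFP-positive cells sorted out of dissociated day 1 adults grown at 20 °C, about 4000 cells per sample on average, and was made into libraries by Smart-seq2. The controls carried *npr-1(ad609)*, which disables the neuropeptide receptor NPR-1, and the *arcp-1* mutants carried *arcp-1(db1082)* together with *npr-1(ad609)*. The *db1082* allele came from a genetic screen and puts a premature stop codon in *arcp-1*, an ankyrin-repeat scaffold gene. Both strains held the marker *ynIs64[flp-17p::gfp]*, so a cell was chosen by the activity of the *flp-17* promoter, and both lacked NPR-1 function. Each genotype was 1 strain with 6 biological replicates, and each replicate gave 1 library.

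In this pathway a receptor loads a Gα subunit with GTP and frees it from Gβγ, and RGS proteins speed the return to the resting state. In worm neurons Gαq (EGL-30) and Gαs (GSA-1) promote transmitter and peptide release, through phospholipase Cβ and diacylglycerol and through cyclic AMP and PKA, and Gαo (GOA-1) opposes them. Most of the remaining *gpa* genes are known from small sets of chemosensory neurons, where they tune responses to odours and pheromones. BAG detects CO2 with a receptor guanylyl cyclase and cyclic GMP, and G protein pathways act on such neurons as modulators.

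Recovered reads ran from 374550 to 8683395 per library, and 4 libraries (*arcp-1* mutant replicates 3 and 4, control replicates 1 and 5) held fewer than 1000000. The *arcp-1* transcript itself was at 704 to 4277 normalized counts (reads divided by a size factor for each library) in *arcp-1* mutants and 3288 to 12360 in controls. The 6 BAG markers, *flp-17* included, summed to 905 to 4520 TPM (a level corrected for gene length and scaled to the same total in every library) in *arcp-1* mutants and 849 to 3955 in controls, with replicate 1 lowest in both genotypes. Markers of body wall muscle and hypodermis were abundant in both genotypes. The 4 body wall muscle markers summed to a median of 5959 TPM in *arcp-1* mutants and 6322 in controls, and the 4 hypodermal markers to 1863 and 1961. Single genes carried most of these sums. In controls the highest muscle gene averaged 6322 TPM of a summed mean of 6806, and the highest hypodermal gene 1974 of 2105. Other non-neuronal lists had control medians from 1.06 TPM (coelomocytes) to 287.3 TPM (germline). The 6 markers of the oxygen-sensing URX, AQR and PQR neurons summed to 23.6 to 284.6 TPM (median 115.8) in *arcp-1* mutants and 98.0 to 3173 TPM (median 337) in controls, where replicate 1 was the highest. In controls the highest of these markers averaged 720.6 TPM of a summed mean of 820.1. The part of these cells in the results was not tested. None of the 49 marker genes that could be tested, of 62 listed, was called between the genotypes in the limma fit, which called 1.66% of all 12096 genes tested. With so low a share, the lack of calls among 49 genes does not show equal cell composition. Since each library pools cells, fewer cells of a type and less RNA per cell cannot be told apart.

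The widely used signalling core was well represented in these libraries. Levels given here are those of the whole libraries, muscle and hypodermal RNA included, and the part of BAG neurons in them was not tested. In controls, 9 of the 51 members stood at 100 TPM or more: *egl-30*, *kin-1*, *gsa-1*, *goa-1*, *eat-16*, *pkc-1*, *gpc-2*, *rgs-2* and *gpb-1*. A further 19 lay between 10 and 100 TPM, 17 between 1 and 10, and 6 below 1. The 6 lowest were all Gα genes. Neighbours in this order could not be separated by their spread: among the 16 highest members no gene had all its control libraries above those of the next gene. *gsa-1* exceeded *goa-1* in 6 of 6 control libraries, and *goa-1* exceeded *eat-16* in 3 of 6.

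**Figure D1:**
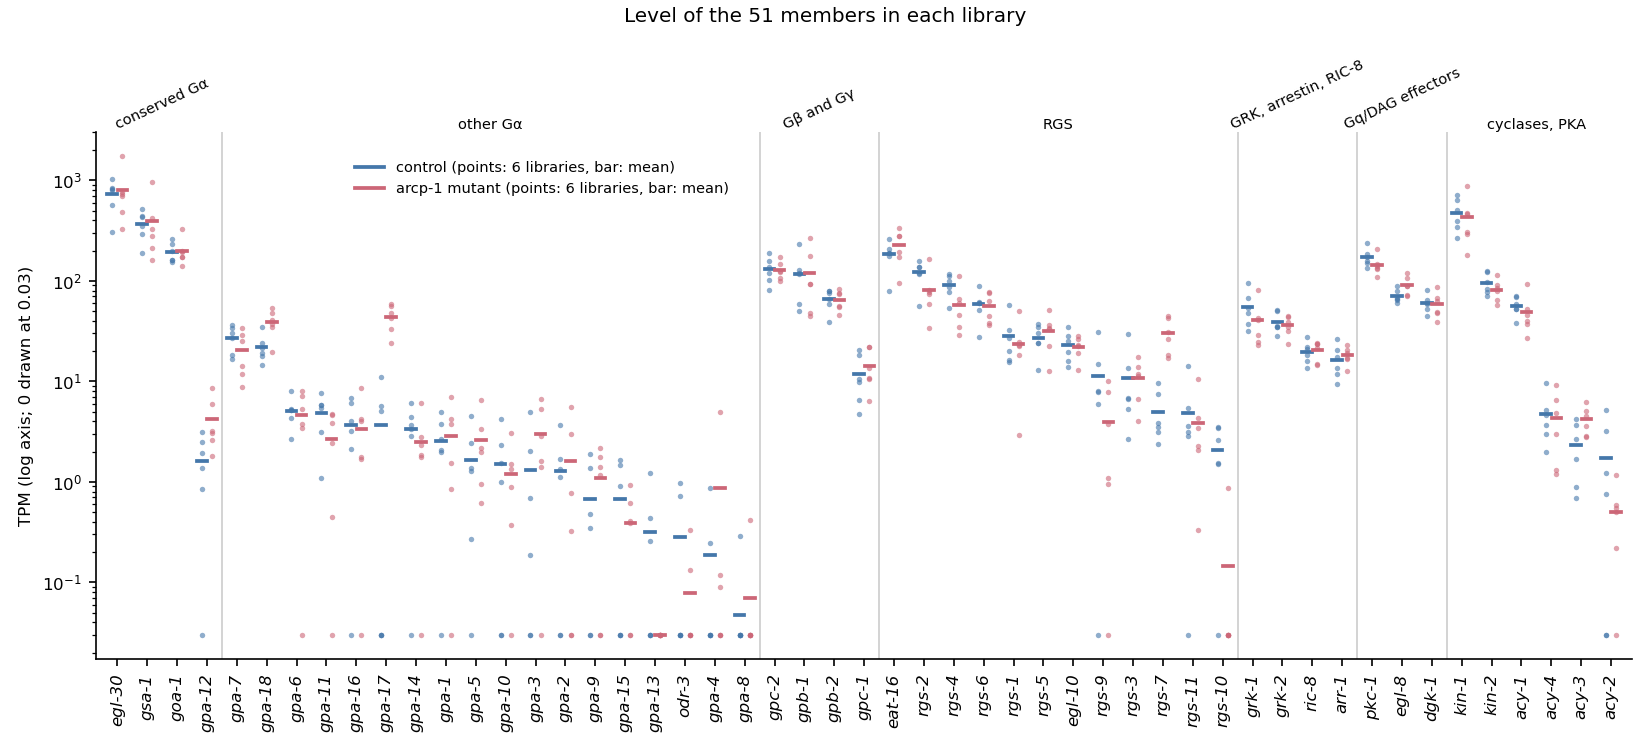
TPM of the 51 members (log axis, zeros drawn at 0.03) in the 6 control and 6 *arcp-1* mutant libraries, grouped by role; points are libraries and bars are means. The highest Gα genes, *egl-30*, *gsa-1* and *goa-1*, lie far above the other Gα genes, and *gpa-17* and *rgs-7* are the members whose genotypes do not overlap among those tested.

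Of the Gα genes, *egl-30* was the highest. It stood at 726 ± 250 TPM (SD, n = 6) in controls, rank 161 of all genes, and at 793 TPM in *arcp-1* mutants. Its normalized counts ran from 1258 through a median of 3361 to 4631 in controls and from 1433 through 3094 to 7249 in *arcp-1* mutants, so the genotypes overlapped broadly. The log2 fold change was 0.04 (95% interval -0.74 to 0.82, adjusted p = 0.987 from limma), and it took either sign when single libraries were left out. *gsa-1* followed with 370 ± 119 TPM (SD, n = 6) in controls and 396 in *arcp-1* mutants. Its normalized counts were 662 to 1788 (median 1568) in controls and 606 to 3493 (median 1141) in *arcp-1* mutants, overlapping again. The log2 fold change was -0.08 (95% interval -0.85 to 0.69, adjusted p = 0.97 from limma), and its sign was positive with edgeR and DESeq2. *goa-1* stood at 194 ± 44.5 TPM (SD, n = 6) in controls. Normalized counts of *goa-1* were 476 to 831 (median 631) in controls and 459 to 1020 (median 602) in *arcp-1* mutants, with a log2 fold change of 0.03 (95% interval -0.40 to 0.47, adjusted p = 0.98 from limma) that turned negative under quantile normalization. No change of these 3 genes was detectable, and the intervals for *egl-30* and *gsa-1* leave room for more than that for *goa-1*.

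Those 3 genes took 93.3% ± 3.08 (SD, n = 6) of the summed TPM of all 22 Gα genes in controls and 89.6% ± 5.66 (SD, n = 6) in *arcp-1* mutants. *egl-30* alone made up 51.8% and 50.8%, *gsa-1* 26.7% and 24.4%, and *goa-1* 14.8% and 14.3%, in controls and *arcp-1* mutants respectively. The 19 remaining Gα genes together took from 4.24% to 12.1% in control libraries and from 5.45% to 21.4% in *arcp-1* mutant libraries. The highest of these shares came from *arcp-1* mutant replicate 4, one of the shallow libraries.

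**Figure D2:**
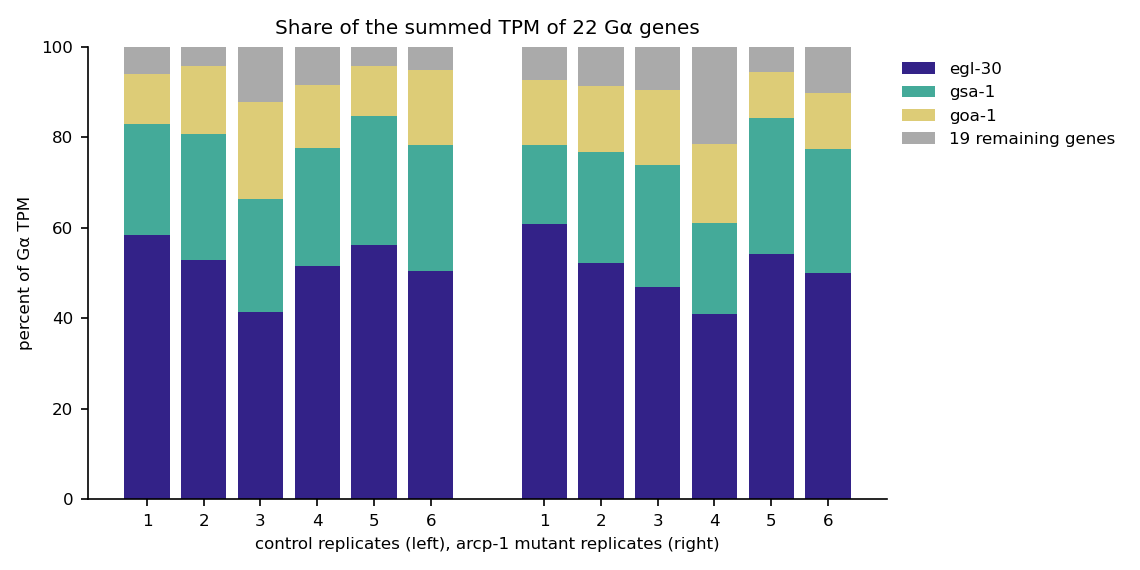
Stacked share (percent) of the summed TPM of the 22 Gα genes in each library, controls at left and *arcp-1* mutants at right. *egl-30* takes 41.0% to 60.8% of the total in every library, and the 19 genes shown in grey take at most 21.4%.

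The remaining Gα genes were low. *gpa-12*, the Gα12 gene, stood at 1.63 ± 1.13 TPM (SD, n = 6) in controls and 4.22 in *arcp-1* mutants (log2 fold change 1.24, adjusted p = 0.494 from limma). Among the 18 other Gα genes the highest in controls were *gpa-7* (27.2 ± 8.21 TPM, SD, n = 6) and *gpa-18* (21.99 ± 7.02 TPM, SD, n = 6). Apart from *gpa-7*, *gpa-17* and *gpa-18*, the 15 genes of this class averaged from 0.048 to 5.09 TPM in controls and at most 4.61 TPM in *arcp-1* mutants. The 17 markers of AFD, ASE, AWC, AWA, ASH and ASI neurons, measured the same way, had a median of 1.72 TPM in controls, and 16 of them were under 10 TPM, while the 19 remaining Gα genes had a median of 1.63 TPM and 17 of them were under 10 TPM. A level in this range was therefore not distinguished from that of genes of neighbouring sensory neurons. *gpa-8*, known from the oxygen-sensing URX, AQR and PQR neurons, had at most 1 read in any library, and *odr-3*, the olfactory Gα gene, at most 5. *gpa-13* had no read in the 6 *arcp-1* mutant libraries and at most 6 in a control library.

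Normalized counts of *gpa-7* were 33.5 to 72.2 (median 59.7) in controls and 19.2 to 70.6 (median 42.9) in *arcp-1* mutants. The genotypes overlapped (log2 fold change -0.49, SE 0.35, adjusted p = 0.708 from limma). Normalized counts of *gpa-18* were 24.1 to 75.8 (median 32.3) in controls and 33.5 to 91.9 (median 68.4) in *arcp-1* mutants. Only control replicate 1, at 75.8, stood above the *arcp-1* mutant median. The log2 fold change of *gpa-18* was 0.81 (SE 0.32, adjusted p = 0.346 from limma), and it passed the threshold only when libraries were weighted by their quality (1.04, adjusted p = 0.0159).

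One Gα gene rose in *arcp-1* mutants. *gpa-17* (WBGene00022196, chromosome III, 2586465 to 2589316 on WS255, plus strand) had 0, 0, 12.5, 10.97, 0 and 25.1 normalized counts in control replicates 1 to 6. In *arcp-1* mutant replicates 1 to 6 it had 56.2, 110.3, 76.8, 98.0, 124.0 and 141.8, so every *arcp-1* mutant library lay above every control library. Behind these values stood 0 to 74 reads in controls and 12 to 352 reads in *arcp-1* mutants. Control replicate 2 was deep, with 5107995 reads, and its count of 0 allows at most 1.44 normalized counts, whereas the zeros of the shallow control replicates 1 and 5 allow up to 10.8 and 12.7. These limits cover counting error only, as PCR copies in Smart-seq2 libraries are counted as separate reads. Mean *gpa-17* counts were 12.5 times as high in *arcp-1* mutants (101.2 ± 31.3, SD, n = 6) as in controls (8.09 ± 10.1, SD, n = 6). On the log2(normalized count + 1) scale the fold change of *gpa-17* was 4.61 (SE 0.80, adjusted p = 0.00448 from limma).

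The size of this difference depended on how zeros were handled, as *gpa-17* had a log2 fold change of 6.30 with a pseudocount of 0.1, 2.75 with a pseudocount of 10, 3.34 in edgeR and 3.46 in DESeq2. The call was made in each of these fits and in all 12 fits without 1 library. Without the 4 shallow libraries, *gpa-17* still did not overlap, at 56.2 to 141.8 in 4 *arcp-1* mutant libraries and 0 to 25.1 in 4 control libraries, but the adjusted p rose to 0.106 (log2 fold change 3.68). *gpa-17* entered the test through the *arcp-1* mutants, since a CPM of 1 (reads scaled to the library total) was reached in 6 *arcp-1* mutant and 3 control libraries, and it was called without any filter as well.

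*gpa-17* lies within *apb-1*, the gene for the large β subunit of the AP adaptor complexes, which runs on the opposite strand from 2583953 to 2597034. The exons of the 2 genes do not overlap in the Ensembl annotation, but reads were counted on WS255 and without regard to strand. Normalized counts of *apb-1* averaged 422 ± 77.4 in *arcp-1* mutants against 397 ± 73.8 in controls (SD, n = 6 each; log2 fold change 0.09, adjusted p = 0.915 from limma). None of the 7 tested genes within 25 kb of *gpa-17* was called, where 1.66% of all genes tested were. With so low a share, the lack of calls among 7 genes does not show that the region around *gpa-17* is unchanged. The gene lies 1158 kb from *arcp-1* on the same chromosome, and whether a second sequence difference between the strains takes part was not tested.

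**Figure D3:**
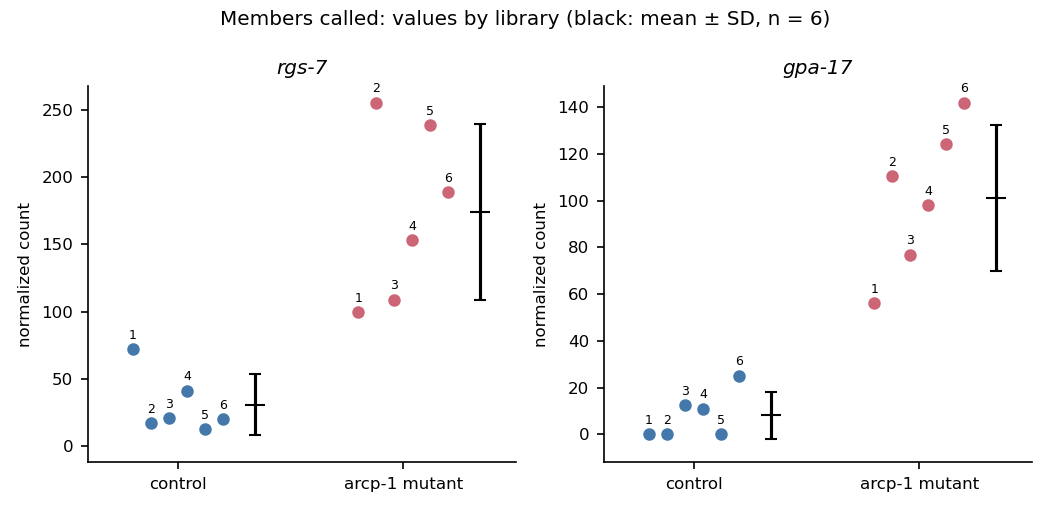
Normalized counts of *rgs-7* (left) and *gpa-17* (right) in each library, labelled with the replicate number, with mean ± SD in black. All 6 *arcp-1* mutant libraries lie above all 6 control libraries for both genes. For *rgs-7* the nearest libraries are control replicate 1 (72.2) and *arcp-1* mutant replicate 1 (99.7).

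Gβ and Gγ transcripts did not change detectably. *gpc-2*, a Gγ gene, supplied 91.7% ± 4.46 (SD, n = 6) of the TPM of the Gγ pair in controls. It stood at 131 ± 39.3 TPM (SD, n = 6) there, with 55.2 to 106.3 normalized counts (median 72.0) in controls and 59.7 to 106.0 (median 72.0) in *arcp-1* mutants, nearly the same range. Its log2 fold change was 0.02 (SE 0.23, adjusted p = 0.99 from limma) and changed sign with the setting. *gpc-1*, the Gγ gene known from sensory neurons, averaged 11.8 TPM. *gpb-1*, the general Gβ gene, had 118 ± 65.5 TPM (SD, n = 6), and *gpb-2*, whose product partners the RGS proteins EGL-10 and EAT-16, had 65.7 ± 15.5 TPM (SD, n = 6). *gpb-1* ranged from 187 through 445 to 1184 normalized counts in controls and from 179 through 379 to 1074 in *arcp-1* mutants. The genotypes overlapped (log2 fold change -0.06, SE 0.47, adjusted p = 0.983 from limma), with a positive sign in edgeR.

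Several core genes varied widely between libraries. *egl-30* spanned a 5.76-fold range over the 12 libraries, *gsa-1* 5.76-fold and *gpb-1* 6.61-fold, against a median of 2.86-fold for the 2885 tested genes that averaged 100 normalized counts or more. *gpb-2* (1.83-fold), *grk-2* (2.07-fold), *kin-2* (2.10-fold), *pkc-1* (2.13-fold) and *goa-1* (2.22-fold) were steadier. *gpb-1* was highest in replicate 1 of both genotypes, at 1184 and 1074, the same libraries in which the mean log2 level of the 6 BAG markers was lowest, at 8.496 and 7.97. *eat-16*, by contrast, was lowest in those libraries. The summed TPM of 4 germline markers was 522 and 606 there, against 155 to 313 in the other *arcp-1* mutant libraries and 244 to 543 in the other control libraries. The part of cell composition in these values was not tested.

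Peak values gathered in a pair of libraries. *arcp-1* mutant replicate 5 held the highest value of the 12 libraries for 8 of the 19 members that averaged 100 normalized counts or more, or 42.1%, and for 21.8% of all 2885 such genes. *egl-30*, *gsa-1*, *goa-1* and *kin-1* were among them. Control replicate 6 was highest for 5 of the 19, or 26.3%, and for 5.51% of all such genes. The summed TPM of the 6 BAG markers was also highest in *arcp-1* mutant replicate 5, at 4520, and was 3358 in control replicate 6. The part of BAG content in these peaks was not tested. With *arcp-1* mutant replicate 5 left out, the log2 fold change was -0.21 for *egl-30* and -0.11 for *goa-1*, and neither was called.

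**Figure D4:**
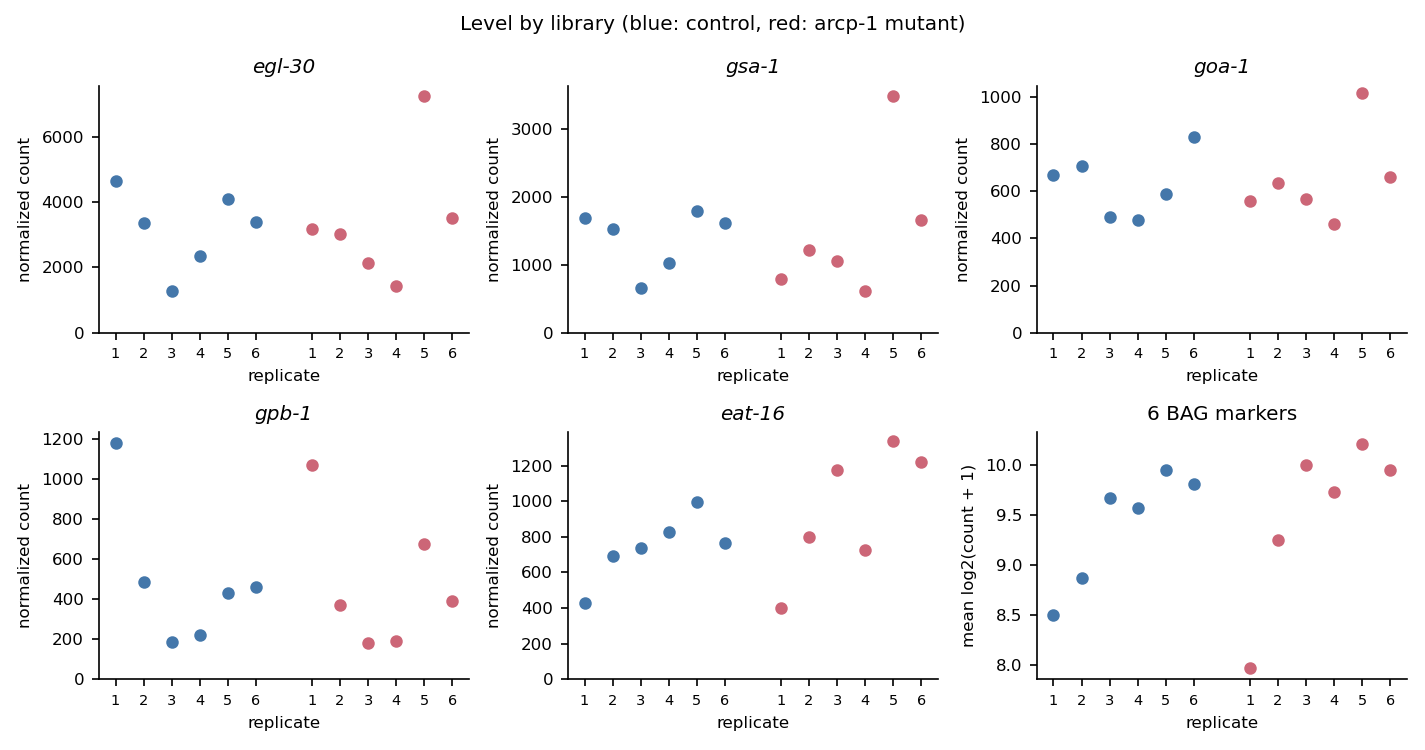
Normalized counts of *egl-30*, *gsa-1*, *goa-1*, *gpb-1* and *eat-16*, and the mean log2(normalized count + 1) of the 6 BAG markers, in each library (controls in blue, *arcp-1* mutants in red). *arcp-1* mutant replicate 5 is highest for the 3 Gα genes, and replicate 1 of both genotypes is highest for *gpb-1* and lowest for *eat-16* and the BAG markers.

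Among RGS genes, *rgs-7* rose in *arcp-1* mutants and the most abundant members did not pass the test. *rgs-7* (WBGene00004350, chromosome X, 3542558 to 3557599 on WS255, plus strand) encodes an RGS protein that in the early embryo acts on Gα during spindle movement. Control replicates 1 to 6 had 72.2, 17.3, 20.9, 41.2, 12.7 and 20.0 normalized counts, and *arcp-1* mutant replicates 1 to 6 had 99.7, 255.2, 108.8, 153.1, 238.4 and 188.6. Every *arcp-1* mutant library was above every control library. The reads behind *rgs-7* numbered 3 to 109 per control library and 17 to 468 per *arcp-1* mutant library. Mean counts were 5.66 times as high in *arcp-1* mutants (174 ± 65.0, SD, n = 6) as in controls (30.7 ± 22.6, SD, n = 6), and the log2 fold change was 2.63 (SE 0.39, adjusted p = 0.00123 from limma).

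*rgs-7* was called under all 23 alternatives, with log2 fold changes from 2.25 to 2.92 and adjusted p from 1.99e-08 to 0.00625. Without the 4 shallow libraries it was at 99.7 to 255.2 against 17.3 to 41.2. None of the 6 tested neighbours within 25 kb was called, where 1.66% of all genes tested were. So few genes do not show that the region is unchanged. In the Ensembl annotation no exon of another gene overlaps *rgs-7*. The gene moved from 5.01 to 29.9 TPM, and its share of the TPM of the 12 RGS genes from 1.02% to 5.69%.

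Coelomocyte markers (*cup-4*, *unc-122* and *lgc-26*) summed to 0 to 11.4 TPM in controls and 0.312 to 73.1 TPM in *arcp-1* mutants. Their highest sums were in *arcp-1* mutant replicates 3, 4 and 5, at 36.7, 25.4 and 73.1 TPM. In *arcp-1* mutant replicates 1, 2 and 6 the sums were 0.312, 0.587 and 1.26 TPM. The highest control sum, 11.4 TPM, was in replicate 5. Their part in the values of *rgs-7* and *gpa-17* was not tested.

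The leading RGS gene was *eat-16*, whose product acts on EGL-30. It stood at 184 ± 59.0 TPM (SD, n = 6) in controls, 31.8% of the RGS total. Its normalized counts were 426 to 998 (median 753) in controls and 402 to 1341 (median 988) in *arcp-1* mutants, overlapping over most of their range (log2 fold change 0.28, SE 0.28, adjusted p = 0.8 from limma). *rgs-2*, which with *rgs-1* limits Gαo signalling in egg laying, had 121.6 ± 35.5 TPM (SD, n = 6) in controls. Its normalized counts were 231 to 502 (median 392) in controls and 112 to 510 (median 247) in *arcp-1* mutants. The log2 fold change of *rgs-2* was -0.65 (SE 0.29, adjusted p = 0.448 from limma), and that of *rgs-4*, at 91.7 TPM in controls, was -0.74 (SE 0.30, adjusted p = 0.364). Neither passed the threshold, and neither passed under any alternative. *rgs-6* (58.2 TPM in controls), *rgs-1* (28.1), *rgs-5* (27.3) and *egl-10* (22.9), whose product acts on GOA-1, were in the middle range. *rgs-9*, *rgs-3*, *rgs-11* and *rgs-10* ran from 11.3 down to 2.10 TPM, and *rgs-10* was too low to test, with at most 3 reads in an *arcp-1* mutant library and 13 in a control library.

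The receptor kinases and their partners were all between 16.4 and 55.3 TPM in controls. *grk-1* had 137 to 395 normalized counts (median 224) in controls and 107 to 358 (median 164) in *arcp-1* mutants. The ranges overlapped (log2 fold change -0.49, SE 0.30, adjusted p = 0.655 from limma). *grk-2*, the receptor kinase that chemosensory neurons need for normal responses, had 102 to 185 normalized counts (median 149) in controls and 89.6 to 165 (median 140.1) in *arcp-1* mutants (log2 fold change -0.10, SE 0.21, adjusted p = 0.919 from limma), with a positive sign when the shallow libraries were left out. *ric-8*, which folds and activates Gα subunits, averaged 19.8 TPM in controls and 20.3 in *arcp-1* mutants, and the arrestin gene *arr-1* 16.4 and 18.1. None of the 4 was called.

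On the Gq branch, *pkc-1*, the neuronal protein kinase C that diacylglycerol activates, averaged 172 TPM in controls. Its normalized counts were 824 to 1336 (median 964) in controls and 628 to 1141 (median 801) in *arcp-1* mutants (log2 fold change -0.25, SE 0.18, adjusted p = 0.708 from limma). *egl-8*, the phospholipase Cβ downstream of EGL-30, had 513 to 758 normalized counts (median 623) in controls and 641 to 1114 (median 823) in *arcp-1* mutants. The ranges of *egl-8* overlapped between 641 and 758 (log2 fold change 0.37, SE 0.18, adjusted p = 0.505 from limma). *dgk-1*, the kinase that removes diacylglycerol, was at 60.2 TPM in controls and 59.1 in *arcp-1* mutants.

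On the Gs branch, the PKA catalytic subunit gene *kin-1* was the second most abundant member, at 476 ± 174 TPM (SD, n = 6) in controls. Its normalized counts were 1870 to 4016 (median 2446) in controls and 1072 to 4927 (median 2283) in *arcp-1* mutants, with a log2 fold change of -0.21 (SE 0.32, adjusted p = 0.877 from limma) that was near 0 and positive when libraries were weighted. The regulatory subunit gene *kin-2* was at 96.1 ± 23.4 TPM (SD, n = 6), and *kin-1* held 82.6% of the TPM of the PKA pair in controls and 82.2% in *arcp-1* mutants. Normalized counts of *kin-2* were 246 to 437 (median 342) in controls and 208 to 401 (median 309) in *arcp-1* mutants (log2 fold change -0.22, SE 0.20, adjusted p = 0.785 from limma). Of the adenylyl cyclases, *acy-1*, the neuronal enzyme that acts with GSA-1, made up 86.4% ± 5.73 (SD, n = 6) of the cyclase TPM in controls and 83.7% ± 5.54 (SD, n = 6) in *arcp-1* mutants, while *acy-2*, *acy-3* and *acy-4* were at 1.73, 2.30 and 4.68 TPM in controls. *acy-3* lies 15.5 kb from *arcp-1* and had a log2 fold change of 1.03 (SE 0.47, adjusted p = 0.449 from limma), which did not pass the test.

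**Figure D5:**
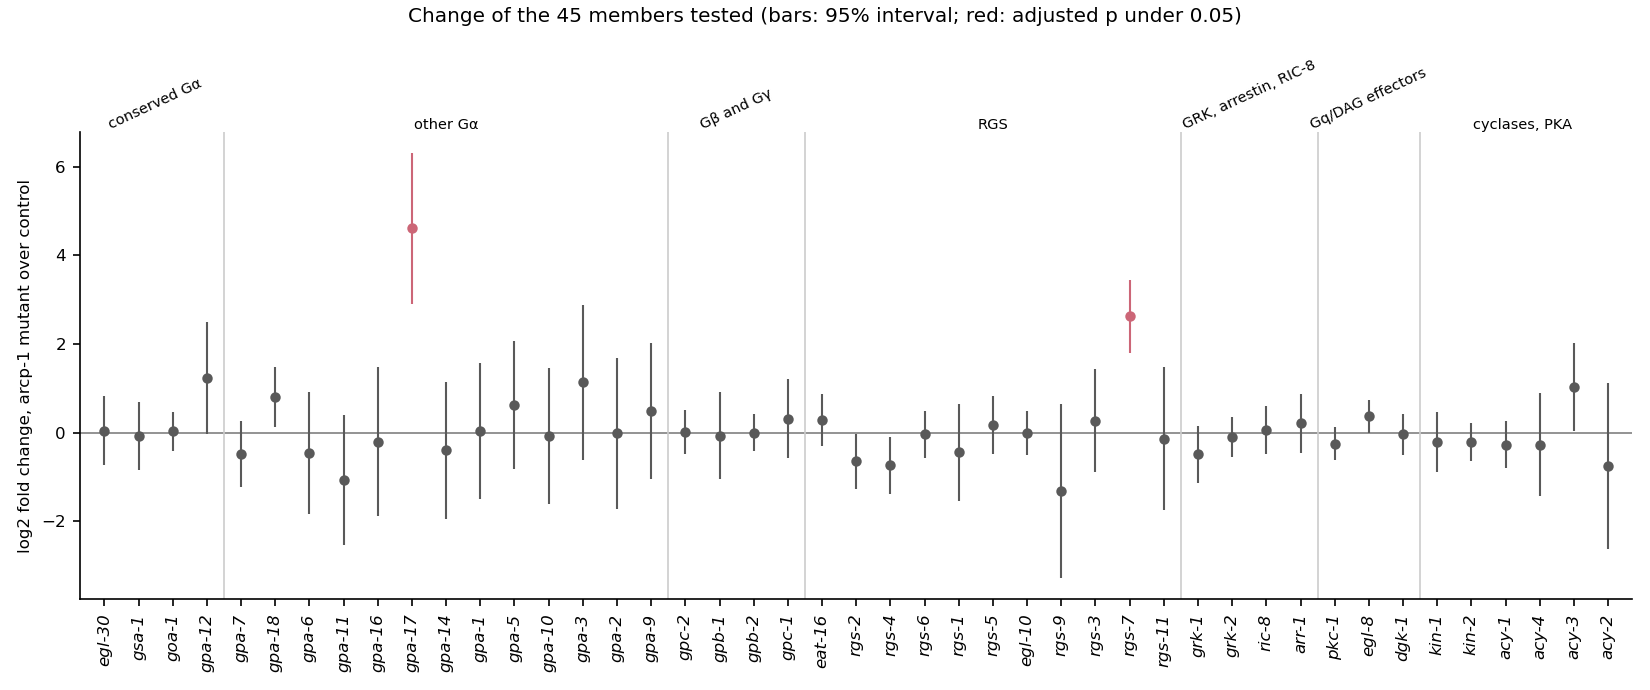
Log2 fold change (*arcp-1* mutant over control, on the log2(normalized count + 1) scale) with its 95% interval for the 45 members tested, grouped by role. *gpa-17* (4.61) and *rgs-7* (2.63), in red, are the members past the threshold, and the other 43 lie between -1.32 and 1.24.

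Counted over the set, 45 of the 51 members passed the filter and were tested, and *gpa-4*, *gpa-8*, *gpa-13*, *gpa-15*, *odr-3* and *rgs-10* were not. Of the 45, 2 were called, both higher in *arcp-1* mutants, against 1.66% of the 12096 genes tested (1.33% higher and 0.331% lower). The same 2 members were the only ones whose genotypes did not overlap, in the higher direction, which 1.29% of all genes tested met. An unadjusted p under 0.05 was reached by 6 of the 45, or 13.3%, near the 10.4% of all genes. They were *rgs-7*, *gpa-17*, *gpa-18* and *acy-3*, with higher values in *arcp-1* mutants, and *rgs-2* and *rgs-4*, with lower values. The median log2 fold change was -0.04 over the members tested and -0.02 over all genes tested, with 20 members above 0 and 25 below. By role, the median lay between -0.24 for the adenylyl cyclases and PKA and 0.04 for the conserved Gα genes. In simulated libraries like these, 42% of 200 genes given a 4-fold change were called, with 7 false calls. That share was not split by level, so it does not apply to each member alike. The limma intervals of *egl-30* (-0.74 to 0.82), *gsa-1* (-0.85 to 0.69) and *goa-1* (-0.40 to 0.47) leave out a 4-fold change in either direction. That of *rgs-9* (-3.27 to 0.64) does not, so a change of that size in such a member could be missed.

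Another 42 genes of G protein and second messenger signalling outside the set were all tested. Of these, 1 was called, lower in *arcp-1* mutants, and none higher, where 1.66% of all genes tested were called (1.33% higher and 0.331% lower). A single call among 42 is near that share. The median log2 fold change was -0.16, against -0.02 over all genes tested. *pde-3*, a cyclic nucleotide phosphodiesterase, fell in *arcp-1* mutants, with a mean of 41.1 ± 15.6 normalized counts against 111 ± 28.6 in controls (SD, n = 6 each). Its range was 67.9 to 139 (median 121) in controls and 26.2 to 70.1 (median 37.3) in *arcp-1* mutants, so that *arcp-1* mutant replicate 6 lay just above control replicate 5. The log2 fold change of *pde-3* was -1.44 (SE 0.28, adjusted p = 0.0105 from limma), and without the 4 shallow libraries it was -1.50 with an adjusted p of 0.0723. The most abundant of the 42 were *pde-1*, the calcium-activated phosphodiesterase (857 TPM in controls, 981 in *arcp-1* mutants), *tax-6*, the calcineurin catalytic subunit (304 and 277 TPM), and *dgk-5*, a diacylglycerol kinase (276 and 251 TPM), none of which was called.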

How the data were processed

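RNA of sorted BAG neurons was sequenced from 6 *arcp-1* mutant and 6 control samples, grouped by the genotype labels. Per the paper's methods, the authors mapped unstranded paired-end reads with STAR to WS255 and counted them with HTSeq. For 22542 genes the authors deposited normalized counts (unit: signal), that is, reads divided by the DESeq2 size factor of the library. The deposited TPM values cover 46766 genes. A further table of the authors' comparison (group means, log2 fold changes, Wald statistics, p and q values) was used for symbols and positions only. All normalized counts (100%) lay within 0.1 of whole reads, which were recovered.

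Log2(normalized count + 1) was fitted with limma 3.58.1 in R 4.3.3 (lmFit, eBayes with trend) for the 12096 genes that reached a CPM of 1 in no fewer than 6 libraries, with Benjamini-Hochberg adjustment over all of them and a threshold of 0.05. The count tests on recovered reads called 198 genes with edgeR 4.0.16 and 404 with DESeq2 1.42.0, against 201. Alternatives comprised pseudocounts of 0.1 and 10, no filter, a mean of at least 100, TPM, quantile normalization, both count tests, library weights, a replicate block and leaving out each library. The fits were tested on simulated data. No library was a copy of another (lowest chi-square per gene 2.50).

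Members and lists were chosen with earlier results of these data known. The genes described in full were those called or not overlapping, *goa-1*, *egl-30*, *gsa-1*, and the 2 of highest control TPM per role; *gpa-12*, *rgs-4*, *acy-3* and *apb-1* were added after their values were seen. Positions are the authors' (WS255), and exon overlaps and strands come from the Ensembl annotation of the same assembly. Gene spans were identical in both for 9 of the 51 members, which did not include *rgs-7* or *gpa-17*. Exons of 20 members overlap another gene, by at least 10% of exon bases in 2, *gpa-1* and *gpa-9*.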

Additional observations from a re-analysis of the deposited data

Results flagged for a closer look

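For genes whose change is printed, 44 groups of 6 libraries were examined. Of these, 7 held 1 library farther from the next than Dixon's 95% limit allows. Chance raises such a flag in about 1 in 20 groups only where values are normally distributed. The limit was applied to normalized counts, not to the log2 values that were fitted, so that rate need not hold here. All 7 flags were for a highest value. *arcp-1* mutant replicate 5 was the highest of its genotype for *egl-30* (7249 normalized counts), *gsa-1* (3493), *goa-1* (1020) and *grk-1* (358). Control replicate 1, a shallow library, was the highest for *gpb-1* (1184) and *gpa-18* (75.8), and control replicate 6 for *pkc-1* (1336). None of these 7 genes was called between the genotypes by limma.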

How the results depend on the processing

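Both members called, *rgs-7* and *gpa-17*, had a positive log2 fold change under every alternative that tested them. A mean of at least 100 normalized counts left 19 members, of which 1 was called, and leaving out the 4 shallow libraries, an alternative chosen after seeing the data, also gave 1 (*gpa-17* 3.68 and *pde-3* -1.50 on the log2 scale lost their calls). Library weights gave 3, with *gpa-18* at 1.04. Without each library in turn, 2 members were called each time, and the median over members ran from -0.14 to 0.05. The 3 leading Gα genes took 93.3% of Gα TPM in controls, and 92.8% to 94.4% there without single controls. In *arcp-1* mutants their mean share was 89.6% and the median 90.9%. The lowest *arcp-1* mutant library, at 78.6%, was replicate 4, a shallow one. Called genes numbered 99 (of 2888) with the stricter mean, 110 without shallow libraries, 404 with DESeq2, 484 with weights and 124 to 329 without single libraries.

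Signs of small changes turned. Log2 fold changes were 0.44 (shallow libraries left out), 0.10 (DESeq2), 0.13 (edgeR) and 0.29 (weights) for *gsa-1*; -0.045 (quantile) for *goa-1*; -0.093 (shallow libraries left out), -0.0142 (DESeq2) and -0.0513 (quantile) for *gpc-2*; 0.87 (shallow libraries left out), 0.0175 (edgeR) and 0.25 (weights) for *gpb-1*; 0.0103 (weights) for *kin-1*; and 0.10 (shallow libraries left out) for *grk-2*. Leaving out single libraries gave -0.21 to 0.25 for *egl-30*, -0.38 to 0.13 for *gsa-1*, -0.11 to 0.12 for *goa-1*, -0.082 to 0.12 for *gpc-2*, -0.36 to 0.24 for *gpb-1*, -0.44 to 0.0024 for *kin-1* and -0.20 to 0.0151 for *grk-2*. None of these was called, and the cause was not tested.

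The replicate number as a block gave 291 called genes and 2 called members. Deviations of same-numbered libraries correlated at 0.0385 to 0.317, over 0.1 in 2 of 6 pairs, and 2 of 6 correlated best with their own number. The main fit did not take the numbers as pairing. BAG marker sums nevertheless ran alike by number. They were 905, 2245, 3617, 3099, 4520 and 3550 TPM in *arcp-1* mutant replicates 1 to 6. Control replicates 1 to 6 had 849, 1920, 3119, 3022, 3955 and 3358 TPM. Whether same-numbered libraries shared a preparation was not tested. Depth limits the members under 10 TPM, since a count of 0 in the shallow libraries allows 10.8 to 19.2 normalized counts.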
